A study of Homo sapiens with 10 samples.

Results

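The interleukin-1 (IL-1) family and its inflammasome were followed in THP-1 macrophages through 10 genes, which encode the ligands IL1A, IL1B and IL18, the receptor antagonist IL1RN, the receptor chains IL1R1, IL1R2 and IL1RAP, and the inflammasome proteins CASP1, NLRP3 and PYCARD. The genes were found by their symbols in the annotation of an Affymetrix Human Gene 1.0 ST array. Each of the 10 was measured by 1 transcript cluster, a set of probes spread over the exons of a gene, out of 21214 clusters that carry a gene symbol. Values are log2 intensities, so a difference of 1 is a 2-fold difference, and the intensity of one gene cannot be set against that of another.

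THP-1 is a human monocytic leukemia cell line, and all 10 arrays held cells of this line that had been turned into macrophages with the phorbol ester PMA (160 nM in the study's methods) for 24 h. The cells were then treated for another 24 h with punicalagin (10 µM in the methods; 3 arrays, of cells at passages 6, 7 and 8), myricetin (2 arrays, passages 7 and 8), quercetin (2 arrays, passages 7 and 8) or the vehicle DMSO (3 arrays, passages 6, 7 and 8). Punicalagin is an ellagitannin of pomegranate, and myricetin and quercetin are plant flavonols. The doses of myricetin and quercetin were not given in the sources used here, so the compound and its dose cannot be told apart in any comparison of the compounds. Replicates are passages of a single line, and p values measure the spread between these cultures only.

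IL-1α and IL-1β act on the same receptor, made of IL1R1 and the accessory chain IL1RAP, and start NF-κB signalling through MYD88 and the IRAK kinases. IL1RN encodes an antagonist that occupies IL1R1 without signalling, and IL1R2 is a decoy receptor that binds the ligand without passing on a signal. IL-1β and IL-18 are made as inactive precursors and are cut by caspase-1, which is switched on in an inflammasome built of a sensor such as NLRP3 and the adaptor ASC, the product of PYCARD. The arrays measured mRNA alone, so cutting and release of the cytokines were not measured. Fewer cells that express a gene and less RNA per cell cannot be told apart in such bulk samples.

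The stretches just before the transcription start of IL1A, IL1B, IL1RN and IL1RAP are shown because the first 3 encode both ligands of the IL-1 receptor and their antagonist, and the fourth was the member that fell under both flavonols. The sequences are those of RefSeq on GRCh38.p14, 250 bases that end at the start site, written 5′ to 3′ on the strand of the gene, with matches to a searched motif in capitals.
IL1A (chr2:112784494-112784743, minus strand): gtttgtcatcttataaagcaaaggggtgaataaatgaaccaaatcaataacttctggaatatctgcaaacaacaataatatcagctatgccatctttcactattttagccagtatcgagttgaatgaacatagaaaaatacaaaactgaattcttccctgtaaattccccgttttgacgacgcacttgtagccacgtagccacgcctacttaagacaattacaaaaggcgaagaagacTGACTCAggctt
IL1B (chr2:112836780-112837029, minus strand): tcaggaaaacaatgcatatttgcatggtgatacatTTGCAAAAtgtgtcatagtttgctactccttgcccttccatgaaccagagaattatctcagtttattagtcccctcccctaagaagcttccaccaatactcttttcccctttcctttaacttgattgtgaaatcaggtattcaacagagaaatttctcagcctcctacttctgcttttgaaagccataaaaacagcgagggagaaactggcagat
IL1RN (chr2:113117721-113117970, plus strand): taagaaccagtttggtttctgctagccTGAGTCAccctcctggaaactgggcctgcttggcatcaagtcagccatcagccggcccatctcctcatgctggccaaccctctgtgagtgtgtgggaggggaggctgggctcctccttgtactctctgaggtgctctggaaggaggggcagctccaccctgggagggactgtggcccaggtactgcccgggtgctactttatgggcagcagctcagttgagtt
IL1RAP (chr3:190513835-190514084, plus strand): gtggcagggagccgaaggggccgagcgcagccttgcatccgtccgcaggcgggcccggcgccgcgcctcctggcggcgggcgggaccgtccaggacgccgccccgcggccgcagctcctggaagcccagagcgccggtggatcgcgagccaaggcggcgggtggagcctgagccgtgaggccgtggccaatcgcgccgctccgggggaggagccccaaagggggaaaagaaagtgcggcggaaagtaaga
Searched on both strands were the NF-κB consensus, the AP-1 motif TGANTCA and the C/EBP motif TTGCNNAA. The IL1A stretch holds the AP-1 match TGACTCA at 12 to 6 bases before the start, the IL1RN stretch holds the AP-1 match TGAGTCA at 223 to 217 bases before the start, and the IL1B stretch holds the C/EBP match TTGCAAAA at 215 to 208 bases before the start. RefSeq lists further starts for 2 of these genes. The other IL1A stretch holds 2 AP-1 matches, and the other 2 IL1RN stretches hold none of the 3 motifs. The IL1RAP stretch shown holds none of them either, and no match in the stretches shown overlapped another motif. Among 35116 promoter stretches of the same length, 9.96% hold the NF-κB consensus, 6.57% the AP-1 motif and 9.05% the C/EBP motif. Such matches are a description of these letters and not of binding. Promoter sequences were at hand for 8 of the 10 members, those other than IL18 and CASP1.

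The macrophage identity of the cells was read from marker genes. CD68, ITGAM, CSF1R, TYROBP, SPI1, LYZ, CD14 and FCGR2A were above the array median, which lay between 5.14 and 5.25, on all 10 arrays. MRC1 was below the lower quartile of every array, at 2.74 to 3.46. The T cell gene CD3E (2.95 to 3.43) and the B cell gene MS4A1 (2.93 to 3.56) also stayed below it. Of 10 measured markers of T, NK, B, epithelial, liver and erythroid cells, NKG7 (5.40 to 6.04) and KRT18 (7.13 to 7.91) were above the array median on every array and the other 8 below it on every array. With punicalagin, myricetin or quercetin, 0 of these 10 passed against DMSO by limma, with 1 at an unadjusted p under 0.05, with myricetin. The scavenger receptor CD163, a macrophage marker, rose 3.69-fold with punicalagin (adjusted p = 0.00270, limma) and 3.60-fold with quercetin (adjusted p = 4.14e-04, limma), and the lysosomal CD68 rose 2.19-fold with quercetin (adjusted p = 0.0103, limma). By the methods' t-test the punicalagin call of CD163 was lost after adjustment (0.169), and CD68 with quercetin was lost without either quercetin array (0.0808 and 0.151). CD68 with punicalagin had a change of 0.99 (adjusted p = 0.0513) and rose without the passage 6 DMSO array (2.31-fold, adjusted p = 0.00784, limma), as CSF1R did with quercetin (0.94, adjusted p = 0.0238). CD14 averaged 7.62 (SD 1.29) in punicalagin, 6.89 in myricetin, 5.99 in quercetin and 5.89 in DMSO cells, with no change past the threshold on all arrays. SPI1 and FCGR2A had negative changes. SPI1 changed by -0.47, -0.34 and -0.53 with punicalagin, myricetin and quercetin, none past the threshold. FCGR2A changed by -0.96 with punicalagin (adjusted p = 0.354), -1.44 with myricetin (0.203) and -1.42 with quercetin (0.0755), and its flavonol changes passed by limma without the passage 8 punicalagin array (0.0261 and 0.00687). Of the 10 macrophage markers, 1 rose by limma with punicalagin, 0 with myricetin and 2 with quercetin, and none fell with all arrays. At an unadjusted p under 0.05 there were 7, 3 and 5, in either direction. Over all clusters tested, 2.33%, 0.509% and 3.92% passed the threshold. Of the same 10, 7 had a positive and 3 a negative change with punicalagin, 6 and 4 with myricetin, and 7 and 3 with quercetin. The part of these marker changes in the results on the IL-1 genes was not tested.

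The passage 6 DMSO array stood apart in several IL-1 genes. Its mean correlation with the other 9 arrays over all clusters was 0.969, against 0.977 to 0.984 for the others. IL1A was 2.80 log2 units higher and IL1RN 2.25 log2 units higher in the passage 6 DMSO array than in the mean of the passage 7 and 8 DMSO arrays. IL1B was 0.84 higher and IL1R1 0.66 higher, while IL18 was lower (-0.39) and IL1RAP differed little (-0.10). Of the members, 2 of 10 differed by at least 2-fold, both upward, against 3.35% of all clusters tested in either direction. The median difference was 0.51 for the members and 0.05 for all clusters tested. The TNF transcript, which is also induced by NF-κB, was 1.89 higher in the same array, the largest difference of the NF-κB genes counted below. PTGS2, NFKBIA and ICAM1 were 1.86, 0.40 and 0.52 higher, and TNFAIP3 was lower (-0.37), in that array. This is 1 array without a replicate at its passage, so passage and array cannot be told apart, and the results on the members against DMSO are therefore given with and without it.

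**Figure D1:**
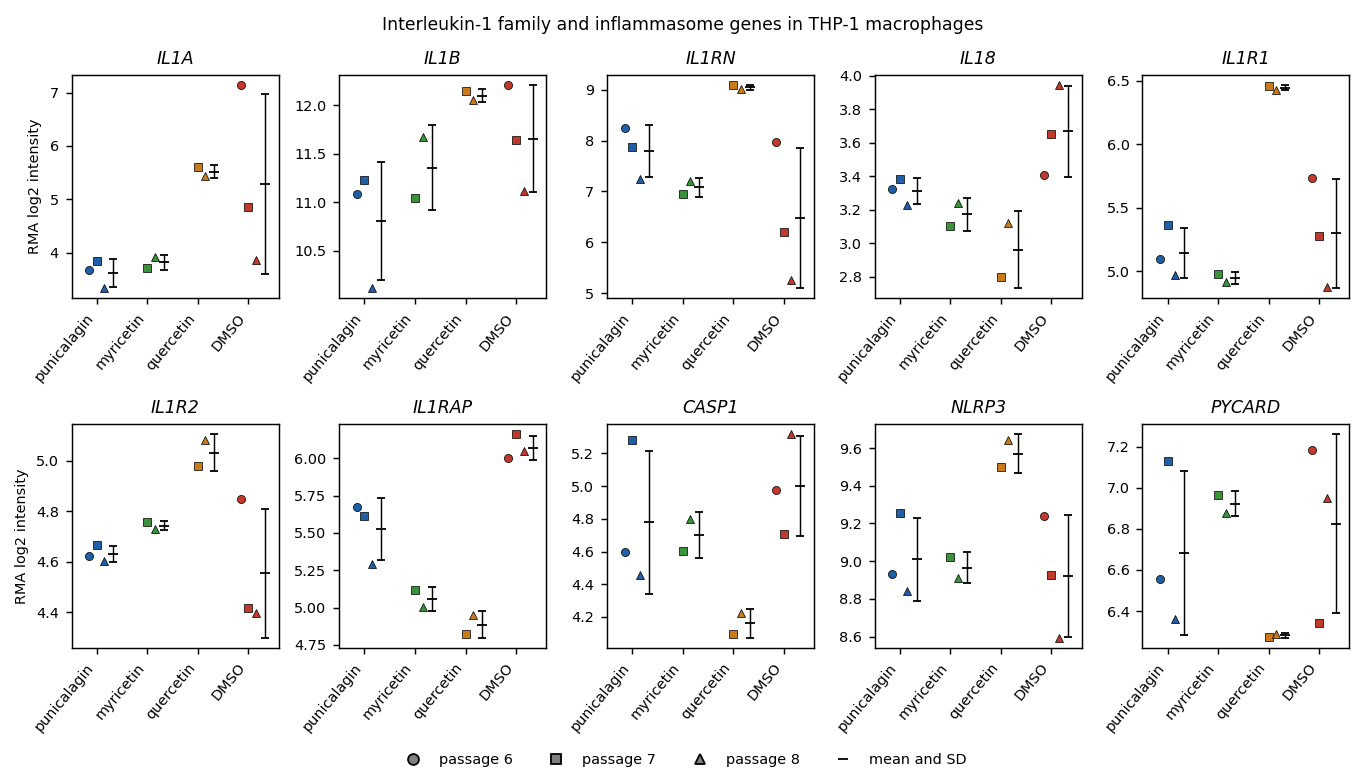
RMA log2 intensity of the 10 genes on each of the 10 arrays (vertical axis, a separate scale in each panel), by treatment, with the passage shown by the symbol and the mean and SD beside the points. IL1RN and IL1R1 were highest on the 2 quercetin arrays, IL1RAP was highest on the 3 DMSO arrays, and the passage 6 DMSO array lay far above the other DMSO arrays in IL1A and IL1RN.

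The ligand IL1B was well above the array median under every treatment. It had 11.09, 11.23 and 10.11 in punicalagin cells at passages 6, 7 and 8, 11.05 and 11.67 in myricetin cells at passages 7 and 8, 12.15 and 12.05 in quercetin cells at passages 7 and 8, and 12.21, 11.64 and 11.11 in DMSO cells at passages 6, 7 and 8. The punicalagin and DMSO arrays overlapped, and both quercetin arrays lay between the highest and the second DMSO array. The change with punicalagin was -0.85 ± 0.34 (SE; 95% interval -1.62 to -0.07, adjusted p = 0.345, limma), and without the passage 6 DMSO array it was -0.57 (adjusted p = 0.432). Set against the DMSO array of its own passage, IL1B was lower in punicalagin cells in 3 of 3 pairs, by -1.13, -0.41 and -1.001. With a term for passage in the fit, the adjusted p was 0.0570 (limma). With quercetin the change was 0.44 ± 0.36 (SE; adjusted p = 0.670, limma), or 0.72 (adjusted p = 0.262) without the passage 6 DMSO array, and both pairs of a passage were higher in quercetin cells. The change with myricetin was -0.30 (adjusted p = 0.925, limma), or -0.02 (0.988) without that array. The 2 myricetin pairs ran in opposite directions, at -0.59 and 0.56.

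IL1A, the ligand that is active without cutting, was below the array median on 7 of the 10 arrays and below the lower quartile on 2, both of punicalagin cells, so that its level on 2 of the 3 arrays of that group was near background. Punicalagin cells had 3.67, 3.85 and 3.33, myricetin cells 3.72 and 3.92, quercetin cells 5.60 and 5.43, and DMSO cells 7.15, 4.85 and 3.85, in the order of the passages. All punicalagin arrays lay just under the lowest DMSO array, and the quercetin arrays lay between the passage 6 and passage 7 DMSO arrays. The DMSO arrays alone spanned more than 3 log2 units, with an SD of 1.69. The change was -1.67 ± 0.67 (SE) with punicalagin (adjusted p = 0.346, limma) and 0.23 ± 0.67 (SE) with quercetin (adjusted p = 0.935, limma). Without the passage 6 DMSO array, IL1A was called with quercetin, at 2.24-fold higher (log2 change 1.16, adjusted p = 0.0235, limma), while the change with punicalagin was -0.74 (adjusted p = 0.222). Without the passage 8 DMSO array the sign with quercetin turned (-0.48, adjusted p = 0.778), so that the direction depends on which DMSO array is used.

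IL1RN, the antagonist, showed the largest change of any member against DMSO in the fits on all arrays, with quercetin. It had 8.25, 7.88 and 7.24 in punicalagin cells, 6.95 and 7.21 in myricetin cells, 9.09 and 9.01 in quercetin cells, and 7.98, 6.21 and 5.25 in DMSO cells. Both quercetin arrays were above every other array. The punicalagin and myricetin arrays were above the passage 7 and 8 DMSO arrays, and the passage 6 DMSO array lay among the punicalagin arrays. With quercetin IL1RN rose 5.93-fold (log2 change 2.57 ± 0.58, SE; 95% interval 1.30 to 3.84; adjusted p = 0.0309, limma), and 9.98-fold without the passage 6 DMSO array (adjusted p = 1.34e-04). Of the fit on all arrays and its 18 alternatives, 9 passed. The call with all 3 DMSO arrays was lost when either quercetin array (adjusted p = 0.222 and 0.225), either myricetin array (0.0583 each), the passage 7 punicalagin array (0.0556), or the passage 7 or 8 DMSO array (0.0892 and 0.0514) was left out, and the adjusted p over all alternatives ran from 7.33e-05 to 0.225.

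The punicalagin comparison of IL1RN turned on the same DMSO array. With all 6 arrays the change was 1.31 ± 0.58 (SE; 95% interval -0.01 to 2.63; adjusted p = 0.414, limma), which was not past the threshold. Without the passage 6 DMSO array it was 4.17-fold higher (log2 change 2.06 ± 0.33, SE; adjusted p = 0.0148, limma), and the adjusted p over all alternatives ran from 0.00929 to 0.746. By passage, punicalagin exceeded DMSO by 0.28, 1.68 and 1.98 at passages 6, 7 and 8. Myricetin exceeded DMSO by 0.74 and 1.96 at passages 7 and 8, with a change of 0.60 (adjusted p = 0.891, limma) over all DMSO arrays and 1.35 (adjusted p = 0.0723) without the passage 6 one. At passages 7 and 8, then, IL1RN was above the DMSO array of its passage in all 6 pairs, while IL1B was above it in 3 of 6. Pairs of the same passage share their DMSO array, so the pairs are not independent.

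**Figure D2:**
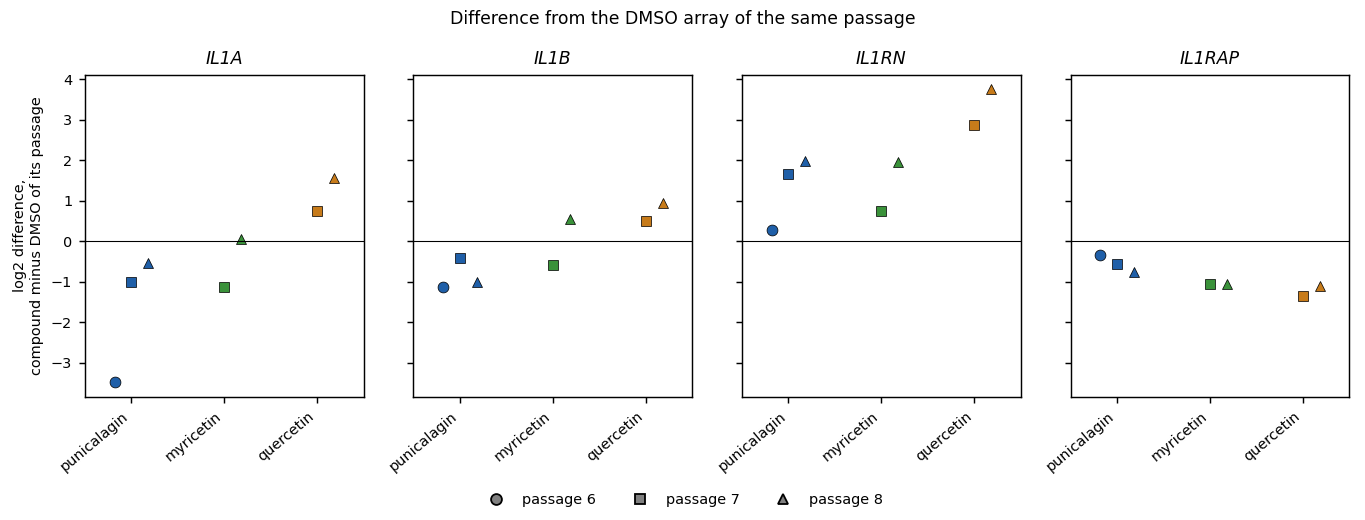
Log2 difference between each compound array and the DMSO array of the same passage (vertical axis) for IL1A, IL1B, IL1RN and IL1RAP, with the compounds on the horizontal axis and the passage shown by the symbol. IL1RN was above 0 in all 7 pairs and IL1RAP below 0 in all 7, whereas IL1A and IL1B were on both sides of 0. Pairs of the same passage share their DMSO array.

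IL18 was below the lower quartile on 8 of the 10 arrays, near background. It had 3.32, 3.38 and 3.23 in punicalagin cells, 3.10 and 3.24 in myricetin cells, 2.80 and 3.12 in quercetin cells, and 3.40, 3.65 and 3.95 in DMSO cells. Every compound array was below every DMSO array, the nearest being punicalagin at passage 7 (3.38) and DMSO at passage 6 (3.40). With quercetin IL18 fell by 0.71 on the log2 scale (adjusted p = 0.0456, limma), a value close to the threshold, and by 0.84 without the passage 6 DMSO array (adjusted p = 0.00883). Of the fit on all arrays and its 17 alternatives, 7 passed. The call was lost without any one of the 9 arrays other than the passage 6 DMSO array (adjusted p = 0.0553 to 0.435 without 1 of them). The changes with punicalagin (-0.36, adjusted p = 0.448) and myricetin (-0.49, adjusted p = 0.388) were not past the threshold, nor were they without that array (-0.49, adjusted p = 0.145, and -0.63, adjusted p = 0.0904).

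Among the receptor chains, the signalling receptor IL1R1 was highest on the quercetin arrays. It had 5.10, 5.36 and 4.97 in punicalagin cells, 4.98 and 4.91 in myricetin cells, 6.46 and 6.43 in quercetin cells, and 5.74, 5.28 and 4.87 in DMSO cells. Both quercetin arrays were above all others, and the punicalagin and myricetin arrays lay within the DMSO range. IL1R1 rose 2.22-fold with quercetin (log2 change 1.15 ± 0.22, SE; adjusted p = 0.0117, limma), and 2.59-fold without the passage 6 DMSO array (adjusted p = 7.00e-04). Of the fit on all arrays and its 17 alternatives, 15 passed. With either quercetin array left out the call was lost (adjusted p = 0.127 and 0.123), with 1 array then left in the group. The changes with punicalagin (-0.15, adjusted p = 0.859) and myricetin (-0.35, adjusted p = 0.753) became 0.07 (0.921) and -0.13 (0.806) without the passage 6 DMSO array.

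The accessory chain IL1RAP, which IL1R1 needs in order to signal and which also serves the receptors for IL-33 and IL-36, moved opposite to IL1R1 with quercetin. With punicalagin and myricetin both chains had negative changes in the fits that kept all DMSO arrays. IL1RAP had 5.67, 5.61 and 5.29 in punicalagin cells, 5.12 and 5.003 in myricetin cells, 4.82 and 4.95 in quercetin cells, and 6.00, 6.16 and 6.05 in DMSO cells. The 4 groups did not overlap, and the DMSO arrays were the highest. IL1RAP fell by 1.18 ± 0.15 on the log2 scale with quercetin, a 2.27-fold lower intensity (SE; adjusted p = 8.84e-04, limma), and by 1.01 ± 0.15 with myricetin, 2.01-fold lower (SE; adjusted p = 0.0123, limma). The quercetin call held under all 17 alternatives (adjusted p up to 0.0257), while the myricetin call was lost without the passage 7 DMSO array (0.0525) or without the passage 7 or 8 myricetin array (0.152 and 0.224). With punicalagin the change was -0.55 (95% interval -0.89 to -0.20, adjusted p = 0.132, limma), and it was below the DMSO array of its passage in 3 of 3 pairs. The DMSO array of passage 6 differed little from the others in this gene, and without it the changes were -0.58, -1.05 and -1.22 with punicalagin, myricetin and quercetin. Averaged over the 10 arrays, IL1RAP was below 5.59, the median over tested clusters of the mean log2 intensity.

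The decoy receptor IL1R2 was below the array median on every array. It had 4.62, 4.67 and 4.60 in punicalagin cells, 4.76 and 4.73 in myricetin cells, 4.98 and 5.08 in quercetin cells, and 4.85, 4.42 and 4.39 in DMSO cells. The quercetin arrays were the highest, with the passage 6 DMSO array next. The change with quercetin was 0.48 ± 0.15 (SE; adjusted p = 0.135, limma), and without the passage 6 DMSO array it was 0.63 and past the threshold (adjusted p = 0.0120, limma; 0.00504 to 0.629 over all alternatives). With punicalagin and myricetin the changes were 0.08 (adjusted p = 0.909) and 0.19 (0.852), or 0.22 (0.496) and 0.34 (0.268) without that array.

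The inflammasome sensor NLRP3 had 8.93, 9.26 and 8.84 in punicalagin cells, 9.02 and 8.91 in myricetin cells, 9.50 and 9.64 in quercetin cells, and 9.24, 8.93 and 8.59 in DMSO cells. The quercetin arrays were above all others by a small margin, and the other groups overlapped. NLRP3 changed by 0.65 ± 0.19 with quercetin (SE; adjusted p = 0.0997, limma), and by 0.81, past the threshold, without the passage 6 DMSO array (adjusted p = 0.0158, limma; 0.00394 to 0.561 over all alternatives). With punicalagin and myricetin the changes were 0.09 and 0.05, or 0.25 and 0.21 without that array, none past the threshold. Caspase-1 ran the opposite way, and CASP1 was below the array median on 8 of the 10 arrays. CASP1 had 4.59, 5.28 and 4.46 in punicalagin cells, 4.60 and 4.80 in myricetin cells, 4.10 and 4.22 in quercetin cells, and 4.98, 4.71 and 5.32 in DMSO cells. Both quercetin arrays were below all others, with a change of -0.84 ± 0.24 (SE; adjusted p = 0.0877, limma), which passed the threshold without the passage 7 punicalagin array (adjusted p = 0.0302; 0.0111 to 0.459 over all alternatives) and was -0.85 (adjusted p = 0.0750) without the passage 6 DMSO array. With punicalagin and myricetin CASP1 changed by -0.22 and -0.30, or -0.23 and -0.31 without that array, none past the threshold.

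PYCARD, the adaptor, had 6.55, 7.13 and 6.36 in punicalagin cells, 6.97 and 6.88 in myricetin cells, 6.27 and 6.29 in quercetin cells, and 7.18, 6.34 and 6.95 in DMSO cells. The quercetin arrays were the lowest but lay close to the passage 7 DMSO array, and the other groups overlapped. The change with quercetin was -0.54 ± 0.26 (SE; adjusted p = 0.353, limma), or -0.37 (adjusted p = 0.496) without the passage 6 DMSO array. With punicalagin and myricetin it was -0.14 and 0.10, or 0.04 and 0.28 without that array, none past the threshold.

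Counted over the 10 members, 0 passed the threshold of an adjusted p of 0.05 with punicalagin against DMSO, where 2.33% of all clusters tested did so. At an unadjusted p under 0.05 there were 3 by limma and 1 by the methods' t-test. Without the passage 6 DMSO array it was 1 of 10, IL1RN, beside 3.11% of clusters. With myricetin it was 1 of 10, IL1RAP, beside 0.509% of clusters, and 1 of 10 beside 1.58% without that array. With quercetin it was 4 of 10, with IL1RN and IL1R1 higher and IL1RAP and IL18 lower, beside 3.92% of clusters. Without the passage 6 DMSO array it was 7 of 10 with quercetin, where IL1A, IL1R2 and NLRP3 joined them as higher, beside 7.73% of clusters. The 3 comparisons share the DMSO arrays, and a group of 2 arrays limits the precision of the flavonol values.

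**Figure D3:**
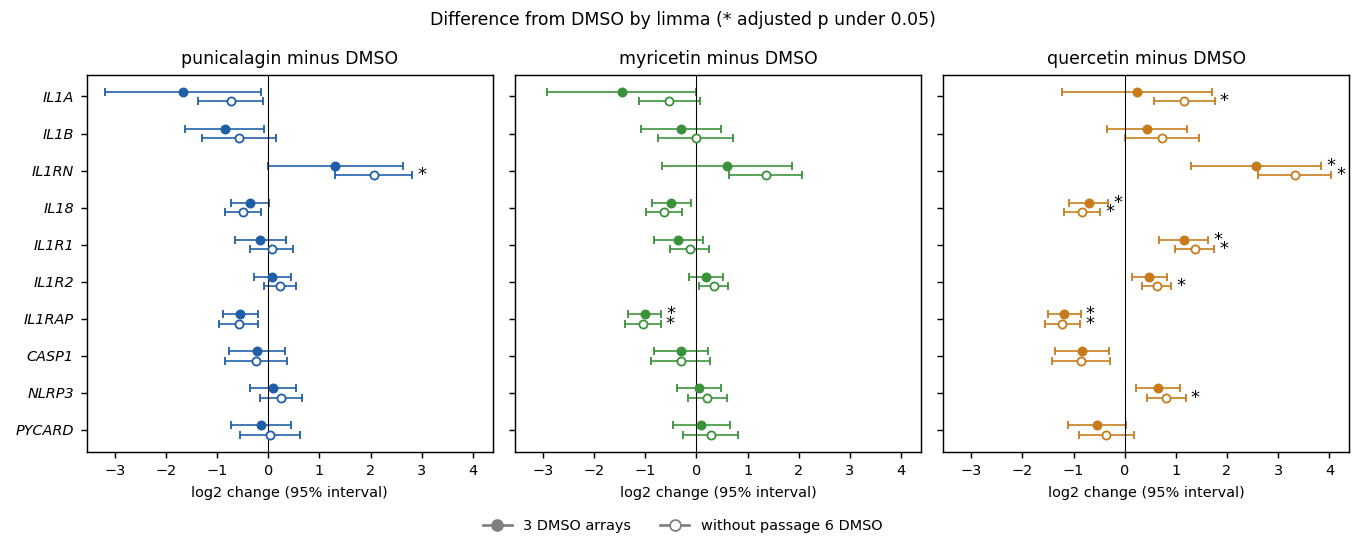
Log2 change against DMSO by limma with its 95% interval (horizontal axis) for the 10 genes (vertical axis), one panel per compound, with all 3 DMSO arrays (filled) and without the passage 6 DMSO array (open); asterisks mark an adjusted p under 0.05. The intervals of IL1A and IL1RN narrowed without that array, IL1RN with quercetin reached 3.32, and IL1RAP was below 0 in every panel.

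The compounds were also set against each other, with a difference of dose not told apart from one of compound. Quercetin differed from both others in IL1R1. IL1R1 was lower by -1.30 ± 0.22 in punicalagin than in quercetin cells (SE; adjusted p = 0.00790, limma) and by -1.50 ± 0.24 in myricetin than in quercetin cells (SE; adjusted p = 0.00967, limma). The first call was lost without the passage 7 or 8 quercetin array (0.133 and 0.0736), and the second without any 1 of the 4 flavonol arrays (0.103 to 0.114). IL1RAP was higher in punicalagin than in quercetin cells by 0.64 ± 0.15 (SE; adjusted p = 0.0354, limma), a call lost without either quercetin array (0.383 and 0.167), either myricetin array (0.0641 each), or the passage 6 or 7 punicalagin array (0.121 and 0.0896), and with the replicate block (0.0573). These were 2 of 10 members for punicalagin against quercetin, beside 3.91% of clusters, and 1 of 10 for myricetin against quercetin, beside 1.70% of clusters.

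Myricetin and quercetin differ by a single hydroxyl group on the B ring, which myricetin has in addition. IL1RAP did not differ past the threshold between them (log2 difference 0.17, 95% interval -0.18 to 0.53, adjusted p = 0.748, limma), while IL1R1 did. IL1RN was lower in myricetin than in quercetin cells by -1.97 (95% interval -3.36 to -0.57, adjusted p = 0.171, limma), and without the passage 6 DMSO array, which adds only to the shared spread in this comparison, that difference had an adjusted p of 0.00646. IL1A was lower by -1.70 (adjusted p = 0.351, and 0.00559 without that array). With these, 3 of 10 members passed for myricetin against quercetin without the passage 6 DMSO array, beside 4.67% of clusters.

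For punicalagin against quercetin the same step brought the count to 5 of 10, beside 7.18% of clusters. IL1A (-1.90, adjusted p = 0.00126), IL1B (-1.29, adjusted p = 0.0243) and IL1RN (-1.26, adjusted p = 0.0248) were lower in punicalagin than in quercetin cells in that limma fit, against adjusted p of 0.169, 0.0757 and 0.319 with all 10 arrays. For IL1A, near background in punicalagin cells, the size of this difference is uncertain. With the replicate block, a term for passage, these 3 genes passed, at -2.38 (adjusted p = 0.0342), -1.50 (0.0259) and -1.75 (0.0264). The block fit keeps the DMSO array that the same step left out. Quercetin has no array of that passage, so the block estimates rest partly on that DMSO array and are no independent check. On passages 7 and 8 only, the limma differences were -1.93 (adjusted p = 0.00597), -1.43 (0.0393) and -1.49 (0.0195). Between punicalagin and myricetin 0 of 10 members passed by limma, beside 0.528% of clusters, with 1 at an unadjusted p under 0.05, IL1RAP. The 95% interval of the difference, punicalagin minus myricetin, was -1.33 to 0.23 for IL1B, -0.56 to 1.98 for IL1RN and 0.14 to 0.79 for IL1RAP.

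The remaining genes of the pathway were counted in lists. Of the other IL-1 family ligands, 0 of 7 (IL33, IL36A, IL36B, IL36G, IL36RN, IL37 and IL1F10) passed by limma against DMSO with any of the compounds, with 1 at an unadjusted p under 0.05, with myricetin. All 7 were below the array median on at least 9 arrays, IL33 and IL37 below the lower quartile of every array, and the largest changes, of IL36B, were -0.75 with punicalagin (adjusted p = 0.533) and -0.83 with myricetin (adjusted p = 0.608). IL36B was 1.49 higher in the passage 6 DMSO array than in the other DMSO arrays, and without that array these changes were -0.25 and -0.34. Of 8 other receptors and binding proteins 0 passed by limma against DMSO, with 2 at an unadjusted p under 0.05, both with quercetin. These included SIGIRR, an inhibitory receptor of the family, at -0.52 with quercetin (adjusted p = 0.0694), which passed without the passage 6 DMSO array (-0.59, adjusted p = 0.0288). IL18BP, the soluble antagonist of IL-18, was above the array median on all 10 arrays, at 6.40 to 7.10. Of the same 8 genes, 1 passed as higher in punicalagin than in quercetin cells, beside 3.91% of clusters.

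Among 9 measured sensors other than NLRP3, 2 rose with punicalagin, 1 with myricetin and 1 with quercetin, and none fell. Among all clusters tested 2.33%, 0.509% and 3.92% passed, mostly upward (452 of 494, 93 of 108 and 593 of 832), and these backgrounds hold for the lists that follow. In punicalagin against quercetin cells, 1 of the 9 sensors passed as higher and 2 as lower, beside 3.91% of clusters. In myricetin against quercetin cells 1 of 9 passed, AIM2 as lower, beside 1.70% of clusters. NLRC4, which forms an inflammasome with NAIP proteins that bind bacterial flagellin, had 5.67, 6.03 and 5.58 in punicalagin cells, 5.70 and 5.67 in myricetin cells, 5.04 and 5.09 in quercetin cells, and 4.59, 4.39 and 4.60 in DMSO cells. All compound arrays were above all DMSO arrays. NLRC4 was below the array median on 5 of the 10 arrays, those of DMSO and quercetin cells. NLRC4 rose 2.35-fold with punicalagin (adjusted p = 0.00667, limma) and 2.24-fold with myricetin (adjusted p = 0.00827, limma). The punicalagin call of NLRC4 held without each of the arrays in turn, and the myricetin call was lost without either myricetin array (0.152 and 0.138).

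AIM2, the sensor of DNA in the cytosol, had 4.67, 4.95 and 4.68 in punicalagin cells, 4.29 and 4.41 in myricetin cells, 5.04 and 5.44 in quercetin cells, and 4.0015, 3.92 and 3.83 in DMSO cells. The groups did not overlap. AIM2 was below the array median on 9 of the 10 arrays, and the alternative without dim clusters left it out. AIM2 rose 2.51-fold with quercetin (adjusted p = 6.36e-04, limma), a call that held under all 17 alternatives, and 1.81-fold with punicalagin (adjusted p = 0.0201, limma), a call lost without the passage 7 or 8 DMSO array (0.0908 and 0.0710) or the passage 6 or 7 punicalagin array (0.0863 and 0.0975). AIM2 was lower in myricetin than in quercetin cells (-0.89, adjusted p = 0.0270, limma), a call lost without any 1 of the 4 flavonol arrays (0.0696 to 0.308).

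In the list of ion channels and other activators of the NLRP3 inflammasome, 2 of 5 genes rose with punicalagin and 3 of 5 with quercetin, none fell, and 0 of 5 passed with myricetin by limma (2 at an unadjusted p under 0.05), beside 2.33%, 3.92% and 0.509% of clusters with punicalagin, quercetin and myricetin. P2RX7, the ATP-gated channel whose opening lets potassium out, had 6.92, 7.42 and 6.25 in punicalagin cells, 5.46 and 5.98 in myricetin cells, 6.89 and 7.03 in quercetin cells, and 5.51, 5.13 and 4.98 in DMSO cells. All punicalagin and quercetin arrays were above all DMSO arrays, and myricetin overlapped DMSO. P2RX7 rose 3.15-fold with punicalagin (adjusted p = 0.0201, limma) and 3.38-fold with quercetin (adjusted p = 0.00599, limma). The punicalagin call was lost without the passage 7 or 8 DMSO array (0.0911 and 0.0566) or the passage 6 or 7 punicalagin array (0.111 and 0.0930), and the quercetin call without either quercetin array (0.0612 and 0.0921).

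P2RX4, a related ATP-gated channel, had 9.69, 9.90 and 9.35 in punicalagin cells, 8.88 and 9.13 in myricetin cells, 9.04 and 9.36 in quercetin cells, and 8.08, 8.35 and 8.28 in DMSO cells. All 7 compound arrays were above the DMSO arrays. P2RX4 rose 2.66-fold with punicalagin (adjusted p = 0.00544, limma), which held without each of the arrays in turn, and 1.95-fold with quercetin (adjusted p = 0.0126, limma), which was lost without either quercetin array (0.0558 and 0.216). By the methods' t-test with Benjamini-Hochberg adjustment, none of the punicalagin calls of NLRC4 (0.169), AIM2 (0.169), P2RX7 (0.304) and P2RX4 (0.171) passed. PANX1, a channel that releases ATP, rose 2.02-fold with quercetin (adjusted p = 0.00421, limma; lost without the passage 8 quercetin array, 0.0984). It had 8.84, 8.93 and 8.74 in punicalagin cells, 8.00 and 8.04 in myricetin cells, 9.03 and 9.30 in quercetin cells, and 8.42, 7.97 and 8.06 in DMSO cells. PANX1 also passed with punicalagin when the passage 6 DMSO array was left out (0.82, adjusted p = 0.0199, limma). It was lower in myricetin than in quercetin cells (-1.14, adjusted p = 0.00871, limma), a call lost without any 1 of the 4 flavonol arrays (0.0535 to 0.138).

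**Figure D4:**
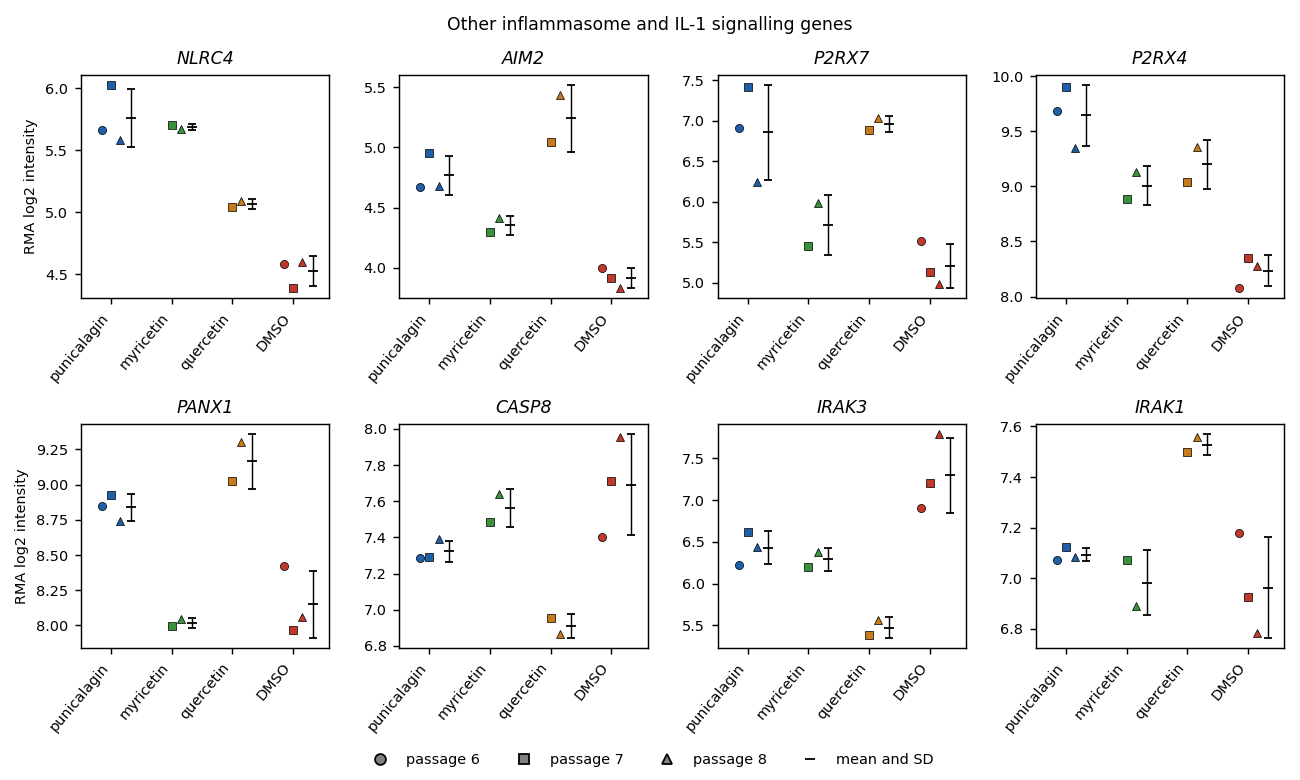
RMA log2 intensity (vertical axis, a separate scale in each panel) of the sensors NLRC4 and AIM2, the channels P2RX7, P2RX4 and PANX1, CASP8, and the kinases IRAK3 and IRAK1 on each array, by treatment, with the passage shown by the symbol and the mean and SD beside the points. NLRC4, AIM2 and P2RX4 were above DMSO on all 7 compound arrays, and IRAK3 was below DMSO on all 7.

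Of 6 inflammatory caspases, substrates and pore proteins, 1 passed with quercetin and 0 by limma with punicalagin or myricetin, where 0 had an unadjusted p under 0.05. CASP8, which can cut the IL-1β precursor and also drives apoptosis, fell by 0.78 on the log2 scale with quercetin (adjusted p = 0.0209, limma). Of the fit on all arrays and its 18 alternatives, 13 passed. The call was lost without the passage 7 or 8 DMSO array (0.0561 and 0.0572) or either quercetin array (0.143 and 0.233). GSDMD, whose cleaved fragment forms the pore through which IL-1β leaves the cell, was -0.41 with quercetin (adjusted p = 0.272) and passed as lower without the passage 6 DMSO array (-0.55, adjusted p = 0.0443, limma), while NINJ1, which ruptures the membrane of dying cells, then passed as higher (0.73, adjusted p = 0.0390). Of 5 measured CARD- and PYD-only inhibitors and serpins, 0 passed by limma against DMSO, with 2 at an unadjusted p under 0.05, both with quercetin.

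Of 9 measured genes of receptor signalling, 1 passed with quercetin and 0 by limma with punicalagin (3 at an unadjusted p under 0.05) or myricetin (1). In punicalagin against quercetin cells, 1 of the 9 passed as higher and 1 as lower, beside 3.91% of clusters. IRAK3, the IRAK family member that dampens IL-1 and Toll-like receptor signalling, had 6.22, 6.62 and 6.44 in punicalagin cells, 6.19 and 6.38 in myricetin cells, 5.39 and 5.56 in quercetin cells, and 6.90, 7.20 and 7.78 in DMSO cells. Every compound array was below every DMSO array, with quercetin the lowest. IRAK3 fell by 1.82 on the log2 scale with quercetin, 3.54-fold lower (adjusted p = 8.60e-04, limma), a call that held under all 18 alternatives. It was -0.87 with punicalagin (adjusted p = 0.106) and -1.01 with myricetin (adjusted p = 0.0973), and it passed with both without the passage 6 DMSO array (-1.07, adjusted p = 0.0275, and -1.20, adjusted p = 0.0140, limma). IRAK1, a kinase of the signalling complex, changed by 0.56 with quercetin (adjusted p = 0.0556) and passed as higher without that array (0.67, adjusted p = 0.0110, limma). IRAK3 was higher in punicalagin than in quercetin cells (0.95, adjusted p = 0.0402, limma), a call lost without the passage 7 DMSO array (0.0561) or any 1 of the 7 compound arrays (0.0665 to 0.389).

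Genes induced by NF-κB were counted as context, since IL1A, IL1B and IL1RN belong to the same response. Of 12 measured, 2 fell with punicalagin, 0 passed by limma with myricetin (4 at an unadjusted p under 0.05), and 2 rose with quercetin, beside 2.33%, 0.509% and 3.92% of clusters. When the passage 6 DMSO array was left out, 2 fell with punicalagin, 2 with myricetin (NFKBIA and SOD2), and 5 rose with quercetin (CXCL1, CXCL2, CXCL3, CCL20 and PTGS2), beside 3.11%, 1.58% and 7.73% of clusters. With all arrays, 6 of the 12 passed as lower in punicalagin than in quercetin cells and 0 as higher, beside 3.91% of clusters. In myricetin against quercetin cells 3 passed as lower and 0 as higher, beside 1.70% of clusters. NFKBIA, the inhibitor of NF-κB, fell by 0.98 (adjusted p = 0.0220, limma) and SOD2, the mitochondrial superoxide dismutase, fell by 1.36 (adjusted p = 0.00596, limma) with punicalagin on the log2 scale. The NFKBIA call was lost without the passage 7 DMSO array (0.0954) or the passage 6 or 7 punicalagin array (0.126 and 0.108), and neither call passed by the methods' t-test after adjustment (0.234 and 0.172). The chemokines CXCL1 and CCL20 rose 3.82-fold (adjusted p = 2.66e-04, limma) and 3.72-fold (adjusted p = 0.0449, limma) with quercetin. The CXCL1 call held without each array in turn, while that of CCL20 was lost without the passage 7 or 8 DMSO array, the passage 6 or 7 punicalagin array, or any 1 of the 4 flavonol arrays (0.0611 to 0.312). SOD2 was lower in punicalagin than in quercetin cells by -1.25 (adjusted p = 0.00361, limma; 0.0736 without the passage 7 quercetin array) and CXCL1 by -1.95 (adjusted p = 7.23e-04, limma).

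The members also varied together in part, which is given as a description across the 10 arrays, whose points share treatments, passages and the DMSO controls. IL1R1 and NLRP3 had a Pearson r of 0.92, IL1A and IL1B 0.83, IL1RN and NLRP3 0.86, and CASP1 and PYCARD 0.81. IL1RN ran opposite to IL18 (-0.81), and its r with IL1B was 0.44. The clusters with a pattern most like that of IL1B over the 10 arrays were HMGA1 (r = 0.967), RAC2 (0.961), MTF1 (0.959), MSC (0.957) and TULP3 (0.938). Over the 9 arrays without the passage 6 DMSO array they were IQCK (0.987), HMGA1 (0.975), MSC (0.960), MTF1 (0.957) and RAC2 (0.954).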

How the data were processed

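Expression was measured on 10 Affymetrix Human Gene 1.0 ST arrays of THP-1 macrophages. The authors deposited 1 log2 intensity per transcript cluster and array, made by RMA, which corrects for background, equalizes the distributions of the arrays by quantiles and combines the probes of a cluster. Affymetrix Expression Console and Partek 7.0 are named in the submitters' processing notes. It is not given in the sources used here whether all 10 arrays went through RMA in 1 run. A shift common to all genes would not be seen after the quantile step. No further normalization was applied. No detection calls were used, and the number of arrays limits the precision. Of 33297 clusters, 19460 have 1 symbol in the platform annotation, 1754 have several and 12083 have none. Tests covered the 21214 that have any symbol.

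Groups came from the sample titles and passages from the sample labels. Linear models were fitted by limma 3.58.1 under R 4.3.3 (functions lmFit and eBayes). P values were adjusted by Benjamini-Hochberg within each comparison over all tested clusters, and 0.05 was the threshold. The punicalagin and DMSO comparison used the 6 arrays of these groups, while all others used the 10 arrays, so that the 4 groups shared 1 estimate of the spread. The procedure was tested on simulated data. A gene was taken as measured if at least 1 cluster had only its symbol, and the brightest such cluster was kept. All 10 members are named, with up to 4 genes per list and comparison against DMSO past the threshold, up to 2 where none passed, and the 5 genes most like IL1B. Between compounds, not every list gene past the threshold is named. Further genes, such as TNF, TXNIP, the ligand list, IL18BP, GSDMD and the markers, were named after their values were seen. The members and lists were chosen with earlier results of these data known. Alternatives were passage as a replicate block, trend and robust estimation, array weights, all clusters, no dim clusters, passages 7 and 8 only, other sets of arrays in the fit, each array left out in turn, and what is called the methods' t-test here, which for 2 groups is the variance analysis named in the study's methods. A mean over several clusters could not be tried, since each member had 1. Promoter sequences are from RefSeq (GRCh38.p14). No genome build is named in the files for the probes, so no probe positions are given.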

Additional observations from a re-analysis of the deposited data

How the results depend on the processing

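The counts of members past the threshold changed with the setting, and the log2 changes mostly kept their direction. Where a call is said to be lost without given arrays, other alternatives can have lost it too. Over the members' changes against DMSO and the members' differences between compounds given in the report, 4 of 319 values under other alternatives and 12 of 380 with 1 array left out had another sign. None of these was past the threshold. With punicalagin against DMSO, IL1R1 became 0.08914 and PYCARD 0.0988 on passages 7 and 8 only, with or without the replicate block. With 1 array left out, IL1R1 ran between -0.37 and 0.06562, IL1R2 between -0.002375 and 0.22, NLRP3 between -0.07428 and 0.25 (-0.03428 without the passage 7 punicalagin array) and PYCARD between -0.39 and 0.03505 (0.01567 without the passage 8 punicalagin array). With myricetin, IL1B ran between -0.61 and 0.0134, IL1RN between -0.01274 and 1.35, NLRP3 between -0.1172 and 0.21 (-0.01065 without the passage 7 myricetin array) and PYCARD between -0.1452 and 0.28. IL1A with quercetin ran between -0.4839 and 1.16. The cause was not tested.

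For punicalagin against DMSO, 0 members passed. The count was 1 with array weights, 2 on passages 7 and 8 only, 1 on these with the replicate block, 1 with all 10 arrays in one fit, 2 with that and the replicate block, and 0 to 1 with 1 array left out. Of all 21214 clusters tested, 494 passed in the fit used above. In these alternatives it was 951, 896, 686, 1014 and 1142 in the same order, and 127 to 660 with 1 array left out. For myricetin against DMSO the count of 1 became 0 without dim clusters (where 4 members remain, without IL1RAP), 0 on the arrays of the 2 groups only, and 0 to 1 with 1 array left out. Over all clusters, 108 of 21214 became 91 of 10607 without dim clusters, 7 on the arrays of the 2 groups only, and 5 to 335 with 1 array left out. For quercetin against DMSO the count of 4 became 7 with array weights, 2 with all clusters tested, 1 without dim clusters, 7 on passages 7 and 8 only, 7 on these with the replicate block, 1 on the arrays of the 2 groups only, and 1 to 7 with 1 array left out. Over all clusters, 832 of 21214 passed in the fit used above. In the same order it was 2539, 561 of 33297, 681 of 10607, 1607, 1354, 377, and 240 to 1639 with 1 array left out. For punicalagin against quercetin the count of 2 became 4 with the replicate block, 7 with array weights, 1 with all clusters tested, 0 without dim clusters, 4 on passages 7 and 8 only, 4 on these with the replicate block, and 0 to 5 with 1 array left out. Over all clusters, 830 of 21214 passed in the fit used above. In the same order it was 951, 2448, 502 of 33297, 684 of 10607, 1130, 939, and 66 to 1523 with 1 array left out. For myricetin against quercetin the count of 1 became 2 with the replicate block, 5 with array weights, 0 without dim clusters, 3 on passages 7 and 8 only, 3 on these with the replicate block, and 0 to 3 with 1 array left out. Over all clusters, 361 of 21214 passed in the fit used above. In the same order it was 703, 2560, 275 of 10607, 1077, 829, and 54 to 991 with 1 array left out.

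Passage as a replicate block left the counts against DMSO at 0, 1 and 4 for punicalagin, myricetin and quercetin, beside 595, 227 and 1008 of 21214 clusters. The deviations of arrays of one passage from their group means correlated between -0.12 and 0.36 over 13 pairs. Those of different passages correlated between -0.44 and 0.33 over 24 pairs. The 2 deviations within a flavonol group are equal and opposite, so pairs with these groups are not independent. Punicalagin and DMSO arrays of passages 6, 7 and 8 had 0.36, -0.10 and 0.32. With punicalagin the block lowered the SE of IL1B from 0.34 to 0.18 (adjusted p = 0.0570, limma) and of IL1RN from 0.58 to 0.30 (0.0780). The SE of IL18, CASP1 and PYCARD rose slightly.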
